A study of Mus musculus with 8 samples.

Results

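The J-domain proteins and the large molecular chaperones were examined in mouse EDL (extensor digitorum longus), a hindlimb muscle made mostly of fast fibres. Members were all genes on the array whose current symbol names a J-domain protein of class A, B or C (Dnaja, Dnajb, Dnajc), an Hsp70 (Hspa), an Hsp90, the Hsp110 gene Hsph1, a mitochondrial chaperonin subunit (Hspd1, Hspe1) or a BAG co-chaperone (Bag1 to Bag6). This rule took 68 of the 20145 genes that a probe of the array named, and it used names only, no measured value. By textbook location, 43 members were placed in the cytosol or nucleus, 14 in the endoplasmic reticulum (ER) and 10 in mitochondria, and 1 (Dnajc22) was left unassigned. Dnajb5 and Hspa1b also match the rule but had no probe under their own symbol, and they were not analysed here.

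Hsp70 proteins bind unfolded stretches of other proteins in a cycle driven by ATP. J-domain proteins bring them their clients and stimulate ATP hydrolysis, while Hsp110 and several BAG proteins help to release the nucleotide. Hsp90 takes over clients that are partly folded, and in the matrix of mitochondria the Hsp60 chaperonin (Hspd1) with its lid Hsp10 (Hspe1) folds imported proteins in a closed chamber. In skeletal muscle these proteins serve the turnover of contractile proteins, and inherited faults of DNAJB6 or BAG3 cause muscle disease in people.

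The 4 male C57BL/6 mice called PCKO carried an inducible, muscle-specific knockout of p300 (Ep300) and CBP (Crebbp), a pair of related transcriptional coactivators with acetyltransferase activity. They were set against 4 male wild-type C57BL/6 mice (WT). Tamoxifen was given by gavage for 5 days, starting at an age of 13 to 15 weeks, and EDL was taken the day after dosing ended (1 day), when the mice had fasted for 4 h. The protocol speaks of a knockout of both genes, but the genotype label of the PCKO mice gives CBP alone. The promoter that drives the recombinase, and whether WT mice were also gavaged, are not given in the sources used here, so the drug and the knockout cannot be told apart from these labels. The comparison asks how transcripts of the muscle differ within days of losing both coactivators.

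Each mouse had 1 single-colour array. The share of the 55681 non-control probes that stood well above background was 43.4% to 46.1% per array, with 0 saturated spots. Values below are relative levels, meaning log2 of the processed spot intensity minus the 75th percentile of the same array, and a difference is PCKO minus WT in log2 units with its standard error. All p-values were adjusted over the 12738 genes tested and called at 0.05. On this percentile scale Ep300 and Crebbp were lower in PCKO muscle (-1.44 ± 0.11 and -0.70 ± 0.11, adjusted p = 5.5e-06 and 3.8e-04). Where their probes lie relative to the deleted parts is not given. PCKO arrays lay in slide columns 1 and 2 and WT arrays in columns 3 and 4, so slide column and group cannot be told apart, whereas each of the 2 slide rows held 2 arrays of each group. Markers of fast muscle fibres were lower for 6 of 6 genes (summed level 10.93 to 11.21 in PCKO against 12.25 to 12.52 in WT), of fibroblasts for 6 of 6 (7.89 to 8.43 against 9.10 to 9.68) and of smooth muscle for 4 of 4 (5.06 to 5.54 against 6.10 to 6.52). Endothelial markers were lower for 6 of 6 genes (3.65 to 3.91 against 4.14 to 4.63), macrophage markers for 4 of 5 tested genes, satellite cell markers for 1 of 3 and neutrophil markers, S100a8 and S100a9, for 0 of 2. When the arrays were instead centred on spike-in controls, foreign RNA added to each labelling reaction, the number called lower was 3 for fast muscle fibres, 4 for fibroblasts, 1 for macrophages and 0 for smooth muscle, endothelium and satellite cells, while both neutrophil genes and Pax7 of satellite cells were called higher. The part of these differences in the chaperone results was not tested. In whole muscle, fewer cells of a type and less RNA per cell cannot be told apart. Centring on spike-ins also moved the median of all genes up by 0.68, close to the size of the Crebbp fall. The Crebbp fall thus depends on the scale.

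The chaperones as a set did not move one way. Of the 68 members, 61 passed the filter on dim probes, and of these 23 were higher, 15 lower and 23 not called in PCKO muscle. Calls were common in this comparison, at 71% of all genes tested (38.3% higher and 32.7% lower), so that the members' 62.3% (37.7% and 24.6%) lay somewhat under the background. A change of at least 2-fold was called for 11 members (18%), 7 higher and 4 lower, against 25.6% of all genes. The 4 PCKO values lay wholly above or below the 4 WT values for 34 members (55.7%), against 65.8% of all genes. The median difference was 0.07 over the members and 0.06 over all genes, with members running from -2.04 to 2.02. The upper end is Dnajb3, which also counts among the 7 and was well above background in PCKO muscle alone.

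The members were then read by location. In the ER 9 of 14 members were higher and 1 lower, with a median of 0.35. In the cytosol and nucleus 13 of 37 tested members were higher and 9 lower, with a median of 0.05. In mitochondria 1 of 10 was higher and 5 lower, with a median of -0.23, and centred on spike-in controls none of those 5 was lower. The shares called higher and lower were 64.3% and 7.14% in the ER, 35.1% and 24.3% in the cytosol and nucleus, and 10% and 50% in mitochondria. Over all genes tested they were 38.3% and 32.7%, and relative to spike-ins 53.5% and 9.44%. On the spike-in scale the shares called higher were 85.7% in the ER, 62.2% in the cytosol and nucleus and 30% in mitochondria. The medians there were 1.03, 0.73 and 0.45, against 0.73 over all genes, so the order of the compartments stayed the same. The compartments were not tested against each other.

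**Figure D1:**
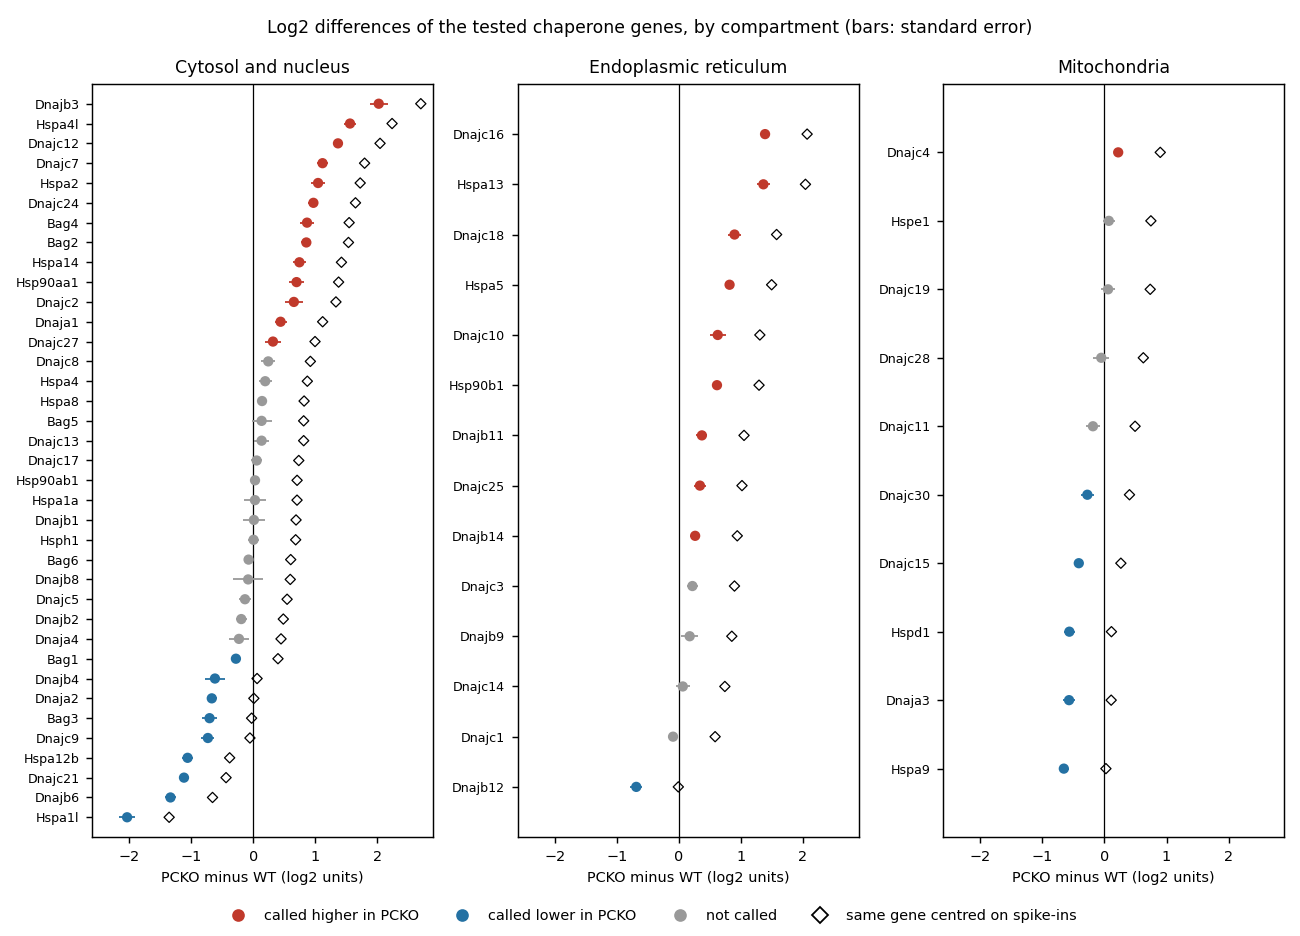
Difference between PCKO and WT muscle (horizontal axis, log2 units) for each of the 61 tested chaperone genes, by compartment, with filled points for the percentile-scaled fit, bars for its standard error and open diamonds for the same gene after centring each array on spike-in controls. In the ER panel 9 of 14 points are called higher, while the 5 blue points of the mitochondrial panel (Hspa9, Dnaja3, Hspd1, Dnajc15, Dnajc30) have diamonds to the right of 0.

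The scale of the arrays bears on every one of these directions. Spike-in controls are foreign RNAs added during labelling, and relative to 7 of their probes the 75th percentile of the muscle probes stood at -2.80 ± 0.34 in PCKO and -3.48 ± 0.30 in WT (SD, n = 4 each). The difference of 0.68 was past an exact two-sided permutation test (p = 0.029, the smallest that 4 against 4 arrays allow), and it moved the median of all genes by the same 0.68. Centred on the spike-ins, 38 members were called higher and 1 lower, where 53.5% of all genes were called higher and 9.44% lower. All 23 members called higher kept that call, Hspa1l alone kept its lower call, and 8 of the 15 lower members (Bag1, Dnaja2, Dnaja3, Dnajb4, Dnajc15, Dnajc30, Hspa9, Hspd1) had values above 0. A further 15 members, not called on the percentile scale, were called higher. They included Hspa8 (0.82), Hspa1a (0.70), Hspa4 (0.87), Hsph1 (0.68), Hsp90ab1 (0.70), Dnajb1 (0.69), Dnajb9 (0.85) and Hspe1 (0.75). The median of all genes on that scale was 0.73. Quantile normalization gave 30 higher and 12 lower members. Unless another scale is named, what follows is relative to the 75th percentile of each array.

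Among the cytosolic Hsp70 genes the standard constitutive and heat-inducible copies (Hspa8, Hspa1a) were not called on the percentile scale. Relative to spike-ins both were called higher (0.82 and 0.70). Less used copies changed in both directions on the percentile scale. Hspa8 encodes Hsc70, the constitutive Hsp70 of most cells. Its relative level was 7.98, 7.93, 7.97 and 7.79 in PCKO muscles, against 7.74, 7.85, 7.90 and 7.64 in WT muscles. The groups overlapped and the difference of 0.14 ± 0.09 was not called (adjusted p = 0.17), whereas quantile normalization gave 0.60 and a call. A dimmer probe for the same Hspa8 transcript differed by 0.55 (adjusted p = 0.0044 over all probes), and one more by 0.08.

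Hspa1a encodes a heat-inducible Hsp70 whose sequence is nearly identical to that of Hspa1b, so its probe may read both. Its level was -0.61, -0.68, -0.88 and -1.21 in PCKO muscles, against -1.19, -0.81, -1.02 and -0.45 in WT muscles. The 2 groups covered nearly the same range, and the difference was 0.02 ± 0.18 (adjusted p = 0.91). Hspa14, an Hsp70 that sits at the ribosome with the J-domain protein Dnajc2, was higher by 0.74 ± 0.10 (adjusted p = 2.5e-04), and Dnajc2 was higher by 0.65 ± 0.14 (adjusted p = 0.0031).

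The largest fall of any member was that of Hspa1l, an Hsp70 neighbour of Hspa1a best known from testis. It had -0.89, -1.22, -1.25 and -1.49 in PCKO muscles, against 0.84, 0.89, 0.86 and 0.70 in WT muscles. No PCKO value came near a WT value, the difference was -2.04 ± 0.12 (adjusted p = 1.6e-06), and it was still called lower after centring on spike-ins (-1.36, adjusted p = 3.8e-05). Hspa12b is a distant Hsp70 relative best known from endothelial cells. It had 1.44, 1.58, 1.49 and 1.64 in PCKO muscles, against 2.48, 2.73, 2.53 and 2.65 in WT muscles. All PCKO values were the lower ones and the difference was -1.06 ± 0.08 (adjusted p = 7.2e-06), but -0.38 and not called relative to spike-ins. Markers of endothelium moved alongside, with 6 of 6 lower and a summed level of 3.65 to 3.91 in PCKO against 4.14 to 4.63 in WT, and their part in the Hspa12b result was not tested.

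Hspa2 and Hspa4l moved the other way. Hspa2, an Hsp70 needed for sperm formation, had 1.87, 1.97, 1.80 and 1.87 in PCKO muscles, against 0.74, 0.92, 0.59 and 1.10 in WT muscles. The lowest PCKO value exceeded the highest WT value, and the difference was 1.04 ± 0.11 (adjusted p = 5.2e-05). Hspa4l belongs to the Hsp110 family of nucleotide exchange factors. It had 2.23, 2.42, 2.29 and 2.31 in PCKO muscles, against 0.64, 0.69, 0.72 and 0.97 in WT muscles. That separation gave a difference of 1.56 ± 0.09 (adjusted p = 1.2e-06). Its relatives Hspa4 and Hsph1 were not called. Hspa4 differed by 0.19 ± 0.10 and was called only without WT replicate 4 (0.28, adjusted p = 0.018) or under another scaling, such as quantile normalization (0.51). Hsph1, the heat-inducible Hsp110, had 4.65, 4.57, 4.77 and 4.71 in PCKO muscles, against 4.67, 4.80, 4.71 and 4.51 in WT muscles. These ranges overlapped throughout, with a difference of 0.00 ± 0.08 (adjusted p = 0.98).

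Of the 2 cytosolic Hsp90 genes 1 was called. Hsp90aa1 encodes the stress-responsive form, which is also needed for myosin folding in zebrafish muscle. It had 5.77, 5.72, 5.65 and 5.67 in PCKO muscles, against 4.76, 5.14, 4.88 and 5.25 in WT muscles. PCKO values were all higher and closer together, and the difference was 0.69 ± 0.11 (adjusted p = 6.1e-04). Hsp90ab1 encodes the constitutive form. It had 9.39, 9.12, 9.15 and 9.27 in PCKO muscles, against 9.17, 9.12, 9.27 and 9.25 in WT muscles. Here the groups overlapped, with a difference of 0.03 ± 0.08 (adjusted p = 0.79), but the call depended on the scale, being 0.64 and past the threshold under quantile normalization. The Hsp90 genes are alike in sequence, and signal of one on the other's probe was not separated.

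**Figure D2:**
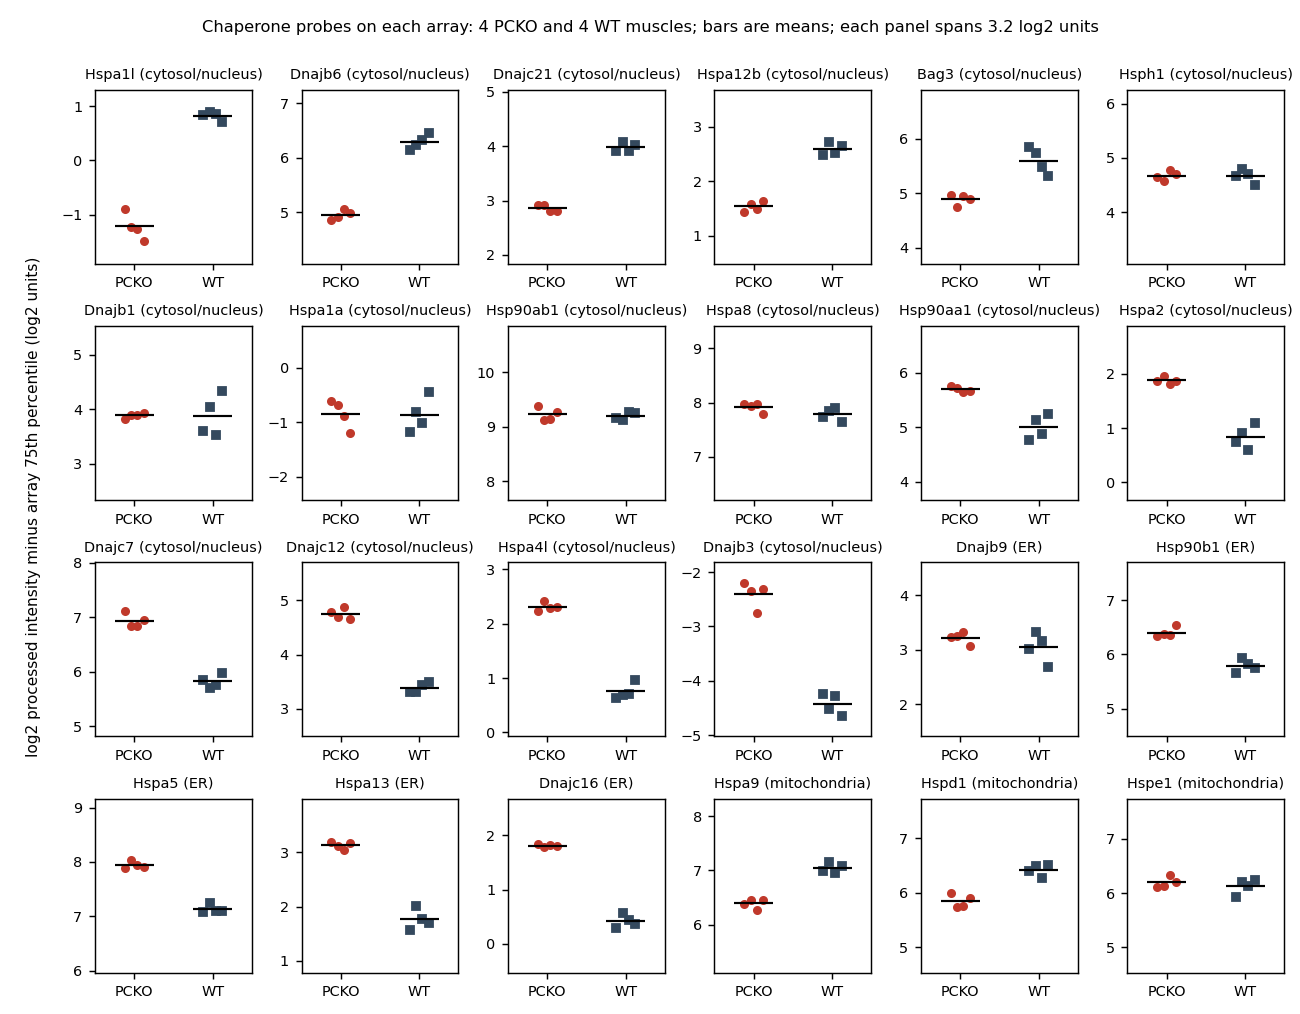
Relative level (vertical axis, log2 units, scaled to each array's 75th percentile) of 24 chaperone genes on each array, with 4 PCKO muscles as red circles, 4 WT muscles as dark squares and horizontal bars for the means. Hspa1l, Dnajb6, Dnajc21 and Hspa12b lie lower in every PCKO muscle, Hspa4l, Dnajb3, Hspa13 and Dnajc16 higher in every PCKO muscle, and Hsph1, Hspa8 and Hspe1 overlap.

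The class A J-domain proteins, the general partners of cytosolic Hsp70, changed in both directions. Dnaja1 was higher by 0.44 ± 0.10 (adjusted p = 0.0031) and Dnaja2 was lower (-0.67 ± 0.08, adjusted p = 8e-05), though relative to spike-ins Dnaja2 stood at 0.01. Dnaja4 differed by -0.23 ± 0.16 with overlapping groups (adjusted p = 0.23).

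Dnajb6 was the class B protein with the clearest fall. In people, mutations in this gene cause a limb-girdle muscular dystrophy, and its protein keeps aggregation-prone proteins soluble. The brightest probe had 4.86, 4.90, 5.06 and 4.99 in PCKO muscles, against 6.14, 6.24, 6.33 and 6.45 in WT muscles. More than 1 log2 unit separated the highest PCKO from the lowest WT muscle, and the difference was -1.34 ± 0.09 (adjusted p = 2.6e-06). Centred on spike-ins it was -0.66, at an adjusted p of 0.05 that did not pass.

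Probes for Dnajb6 fell into 2 kinds, a split that was noticed in the values and was not tested. Both probes for the transcript NM_001037940 were lower (-1.34 and -1.33). The second of them had 3.26, 3.33, 3.46 and 3.43 in PCKO muscles, against 4.64, 4.39, 4.81 and 4.97 in WT muscles. Both probes for NM_001037941 had smaller differences, at -0.27 (adjusted p = 0.045) and -0.15 (adjusted p = 0.31, over all probes). The first of these had 1.54, 1.38, 1.29 and 1.46 in PCKO muscles, against 1.47, 1.64, 1.78 and 1.88 in WT muscles. The Dnajb6 gene is known to give a long, nuclear and a short, mainly cytosolic protein, and which of these each probe reads was not established here.

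Another neuron and muscle gene, Dnajb2, gave the same kind of contrast. The bright probe for NM_020266 differed by -0.20 with overlapping groups (adjusted p = 0.079 in the gene-level fit). The dim probe for NM_178055 had -1.10, -1.15, -1.15 and -0.96 in PCKO muscles, against 0.01, 0.09, 0.25 and 0.32 in WT muscles. It was lower in every PCKO muscle (-1.26, adjusted p = 5.3e-06 over all probes). Of the 20 members with several tested probes, 6 (Dnajb2, Dnajb6, Dnajc19, Dnajc8, Dnaja1 and Hspa8) had some probes called and some not, and 0 had probes called in opposite directions.

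**Figure D3:**
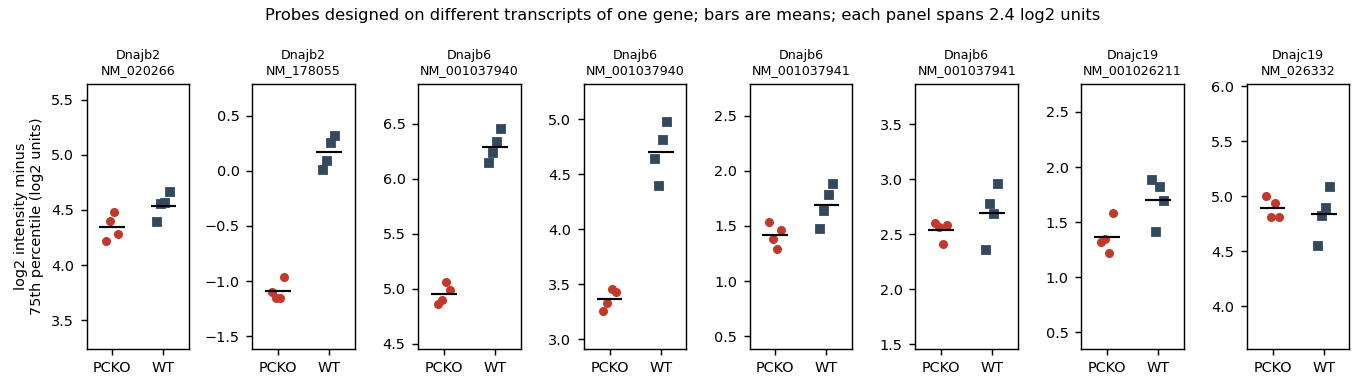
Relative level (vertical axis, log2 units) of each probe of Dnajb2, Dnajb6 and Dnajc19, the members whose tested probes carry different transcript accessions, in 4 PCKO muscles (red circles) and 4 WT muscles (dark squares), with bars for the means. The 2 probes of Dnajb6 transcript NM_001037940 and the probe of Dnajb2 transcript NM_178055 show a wide gap between the groups, while the other probes overlap or nearly touch.

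Heat shock factors bind repeats of the letters GAA and their reverse TTC. In RefSeq promoter windows (build GRCm38.p6, 250 bases before to 50 after a gene's start), which were at hand for 54 of the 68 members, the arrangement GAANNTTCNNGAA was sought on both strands. It was found in 4 of these 54 members, Dnajb6, Hsph1, Hspd1 and Hspe1, and in 0.662% of all 27025 genes with a window. The Dnajb6 stretch is shown, with the match in capitals, because Dnajb6 had the largest fall of the 4. It lies at chr5:29735827-29735896 on the plus strand, from 71 to 2 bases before the first of its 2 annotated starts.
Dnajb6: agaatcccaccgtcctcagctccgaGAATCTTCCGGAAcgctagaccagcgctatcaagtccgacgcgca
A match in letters is no evidence that a factor was bound. Hsph1, whose match lies after its start, differed by 0.00.

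Dnajb1 and Dnajb4 are inducible Hsp40 proteins, the standard partners of Hsp70 in refolding. Dnajb1 had 3.82, 3.90, 3.90 and 3.93 in PCKO muscles, against 3.61, 4.04, 3.52 and 4.34 in WT muscles. The WT muscles straddled the PCKO ones, with an SD of 0.38 in WT and 0.05 in PCKO, and the difference was 0.01 ± 0.17 (adjusted p = 0.97). Dnajb4, linked to a human myopathy, was lower (-0.62 ± 0.17, adjusted p = 0.009), with overlapping groups and a value of 0.06 relative to spike-ins.

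The dim probe of Dnajb3, a J-domain protein of testis, had the highest fitted difference of any member (2.02). It had -2.20, -2.35, -2.75 and -2.32 in PCKO muscles, against -4.24, -4.53, -4.27 and -4.65 in WT muscles. It was well above background in 4 PCKO muscles and in none of 4 WT muscles, so it passed the filter through PCKO alone. The fit's call rests on WT signals not well above background, and its p-value does not test the size of the rise. On the processed intensities the change is a bound, at least 2.53-fold higher in PCKO and given without an error. Dnajb3 therefore cannot be ranked against the 2.94-fold rise fitted for Hspa4l. For the WT side of this bound each array contributed the probe's own signal or, if higher, the dimmest signal that was still well above background. A normexp background correction with an offset of 50 left a difference of 0.03 and no call, so the bound does not hold under that correction. Of the germ cell markers Ddx4, Dazl, Prm1 and Tnp1, only Dazl passed the filter, being well above background in 4 PCKO muscles and 1 WT muscle. It was not called on the percentile scale (0.67 ± 0.31, adjusted p = 0.081) but was called higher relative to spike-ins (1.35), and its part in the Dnajb3 result was not tested.

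Class C holds specialised J-domain proteins, and its changes ran both ways. Dnajc7 carries repeats that dock both Hsp70 and Hsp90. It had 7.12, 6.83, 6.85 and 6.95 in PCKO muscles, against 5.86, 5.70, 5.76 and 5.97 in WT muscles. The groups stood well apart, with a difference of 1.11 ± 0.10 (adjusted p = 1.1e-05). Dnajc12 chaperones the hydroxylases of aromatic amino acids. It had 4.79, 4.68, 4.88 and 4.65 in PCKO muscles, against 3.31, 3.31, 3.43 and 3.50 in WT muscles. Again no value was shared between the groups, and the difference was 1.36 ± 0.08 (adjusted p = 1.6e-06).

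Dnajc21, which takes part in the maturation of the large ribosomal subunit, went down. It had 2.92, 2.91, 2.81 and 2.81 in PCKO muscles, against 3.91, 4.08, 3.92 and 4.03 in WT muscles. The gap between the groups was wide relative to their spread, with a difference of -1.12 ± 0.07 (adjusted p = 2.3e-06), and -0.44 without a call relative to spike-ins. A second Dnajc21 probe agreed in direction, at 2.01 in PCKO and 3.02 in WT on average. Dnajc24, which takes part in making diphthamide on elongation factor 2, was higher by 0.97 ± 0.08, and Dnajc9, a histone chaperone, was lower (-0.73 ± 0.11) but at -0.06 relative to spike-ins. Dnajc27, a small GTPase with a J-domain, was higher by 0.32 ± 0.12 (adjusted p = 0.046), a call that was lost without any 1 of PCKO replicates 1, 3 and 4 and of WT replicates 1, 2 and 4 (0.24 to 0.34).

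The remaining class C members of the cytosol were not called at the gene level. Dnajc8 and Dnajc17, both of the splicing machinery, differed by 0.24 ± 0.12 and 0.05 ± 0.09, and Dnajc8 was called without WT replicate 4 (0.31, adjusted p = 0.047). Of the other Dnajc8 probes, the dimmest was higher (0.37, adjusted p = 0.011 over all probes) and the other was not called (0.15). Dnajc13 of endosomes differed by 0.13 ± 0.12 and Dnajc5, the cysteine string protein of secretory vesicles, by -0.14 ± 0.10. Dnajb8 differed by -0.09 ± 0.25, and without WT replicate 2 it was lower (-0.36, adjusted p = 0.012). Dnajb2 was called lower at the gene level without WT replicate 1 (-0.25, adjusted p = 0.039). The 7 members that did not pass the filter (Dnajb7, Dnajb13, Dnajc5b, Dnajc5g, Dnajc6, Dnajc22 and Hspa12a) were not well above background on 4 or more arrays.

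The BAG family, several of whose members prompt Hsp70 to let go of its client, had 2 members higher, 2 lower and 2 not called. Bag3 carries Hsp70 clients to autophagy in the Z-discs of muscle, and its loss causes myopathy in mice. It had 4.97, 4.75, 4.95 and 4.89 in PCKO muscles, against 5.86, 5.74, 5.48 and 5.32 in WT muscles. PCKO values were all lower, with a difference of -0.71 ± 0.12 (adjusted p = 9.3e-04), and -0.03 relative to spike-ins. Bag1, which links Hsp70 to the proteasome, was lower (-0.28 ± 0.07, adjusted p = 0.0065) but higher by 0.19 after quantile normalization (adjusted p = 0.036). Bag2, an inhibitor of the ubiquitin ligase CHIP, was higher by 0.85 ± 0.08 and Bag4 by 0.86 ± 0.12. Bag5 differed by 0.13 ± 0.16. Bag6, which guides tail-anchored proteins, differed by -0.08 ± 0.08, and by 0.25 with a call after quantile normalization.

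In the ER the Hsp70 and Hsp90 of the lumen were both higher. Hspa5 encodes BiP, the Hsp70 that folds and retains secretory proteins and senses unfolded ones. It had 7.89, 8.04, 7.95 and 7.91 in PCKO muscles, against 7.08, 7.24, 7.10 and 7.10 in WT muscles. Each PCKO muscle exceeded each WT muscle, with a difference of 0.82 ± 0.07 (adjusted p = 1.5e-05). Hsp90b1 encodes GRP94, the Hsp90 of the ER. It had 6.35, 6.37, 6.36 and 6.53 in PCKO muscles, against 5.65, 5.94, 5.82 and 5.75 in WT muscles. These groups were also apart, with a difference of 0.61 ± 0.09 (adjusted p = 2.4e-04).

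Hspa13, a microsomal Hsp70 without a client-binding domain, rose more. It had 3.19, 3.11, 3.05 and 3.16 in PCKO muscles, against 1.58, 2.01, 1.77 and 1.70 in WT muscles. The difference was 1.36 ± 0.10 (adjusted p = 4.9e-06), and a second, dimmer probe differed by 0.96.

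The ER stress element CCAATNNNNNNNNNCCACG, which binds ATF6 together with the factor NF-Y, was sought in the same windows on both strands. It occurred in 3 of 12 ER members with a window, in none of the 35 cytosolic and 7 mitochondrial ones, and in 0.137% of all genes with a window. All 3 carriers are shown, with the match in capitals, because 2 of them are the core chaperones of the ER. Hspa5 lies at chr2:34772000-34772069 (plus strand), Hsp90b1 at chr10:86705612-86705681 (minus strand) with a second match nearer its start, and Dnajc3 at chr14:118937802-118937871 (plus strand), all upstream of the start and read in the direction of the gene.
Hspa5: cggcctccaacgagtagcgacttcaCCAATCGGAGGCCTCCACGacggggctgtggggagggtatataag
Hsp90b1: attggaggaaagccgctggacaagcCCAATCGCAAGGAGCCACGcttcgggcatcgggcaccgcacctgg
Dnajc3: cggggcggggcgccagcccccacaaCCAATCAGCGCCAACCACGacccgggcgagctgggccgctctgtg
Of these, Hspa5 and Hsp90b1 were higher. Dnajc3, a J-domain cofactor of BiP, differed by 0.22 ± 0.09 (adjusted p = 0.063) and was called without PCKO replicate 3 (0.28, adjusted p = 0.021).

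The J-domain proteins of the ER lumen are the partners of BiP. Dnajb11, which delivers unfolded clients, was higher by 0.37 ± 0.09 (adjusted p = 0.0055), and Dnajc10, which also reduces disulfide bonds, by 0.62 ± 0.13 (adjusted p = 0.0024). Dnajb9 is an unfolded protein response target that returns the sensor IRE1 to BiP. It had 3.23, 3.26, 3.33 and 3.07 in PCKO muscles, against 3.01, 3.33, 3.17 and 2.69 in WT muscles. The groups overlapped, and the difference was 0.17 ± 0.14 (adjusted p = 0.28). Dnajc25 was higher by 0.34 ± 0.10 (adjusted p = 0.016), and Dnajc1 differed by -0.10 ± 0.08.

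Members in the ER membrane included the largest rise of this compartment and its only fall. Dnajc16 had 1.84, 1.78, 1.81 and 1.80 in PCKO muscles, against 0.30, 0.58, 0.44 and 0.37 in WT muscles. Its PCKO values were nearly identical and far above WT, with a difference of 1.39 ± 0.08 (adjusted p = 9.3e-07). Dnajb12, Dnajb14 and Dnajc18 are related membrane proteins whose J-domain faces the cytosol. Dnajc18 was higher by 0.90 ± 0.10 and Dnajb14 by 0.26 ± 0.08 (adjusted p = 7.6e-05 and 0.015), while Dnajb12 was lower (-0.69 ± 0.10, adjusted p = 2.1e-04), or -0.01 relative to spike-ins. Dnajc14 differed by 0.06 ± 0.11.

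Partners of the ER chaperones were mostly higher too. Of 23 tested ER folding genes 17 were higher and 3 lower, with a median of 0.69, and relative to spike-ins 19 were higher and 1 lower. Over all genes 38.3% were higher and 32.7% lower, and relative to spike-ins 53.5% and 9.44%. The oxidase Ero1a was called higher, at -1.83, -1.94, -2.10 and -1.54 in PCKO muscles, against -4.34, -3.04, -3.82 and -3.29 in WT muscles. As its probe was well above background on 4 PCKO arrays but only 2 of 4 WT arrays, the size of that rise is uncertain. The disulfide isomerase Pdia4 was higher by 1.36 ± 0.18. The lower genes included Herpud1, a stress-induced membrane protein of ER degradation (-1.41 ± 0.09, and still called lower relative to spike-ins at -0.73), and the degradation channel protein Derl1 (-0.37 ± 0.10, but 0.31 relative to spike-ins). The transcription factor Xbp1, named after its value was seen because so few genes were lower, was at -0.36 ± 0.09, but at 0.32 relative to spike-ins. This list was chosen with earlier results of these data known, so its direction is a description.

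In mitochondria the core matrix chaperones were mostly lower on the percentile scale but not relative to spike-ins, where Hspa9 stood at 0.02, Dnaja3 and Hspd1 at 0.11, Dnajc15 at 0.26 and Dnajc30 at 0.40, none called. The median of the 10 mitochondrial members on that scale was 0.45, against 0.73 over all genes tested. Hspa9 encodes mortalin, the Hsp70 that pulls proteins into the matrix. It had 6.39, 6.45, 6.27 and 6.45 in PCKO muscles, against 6.99, 7.16, 6.95 and 7.08 in WT muscles. All PCKO values lay lower, with a difference of -0.66 ± 0.08 (adjusted p = 9.4e-05). Its J-domain partner Dnaja3 was also lower (-0.57 ± 0.10, adjusted p = 7.3e-04).

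Hspd1, the Hsp60 subunit, had 6.00, 5.74, 5.76 and 5.91 in PCKO muscles, against 6.39, 6.49, 6.28 and 6.51 in WT muscles. The groups were apart, with a difference of -0.57 ± 0.09 (adjusted p = 4.9e-04). Hspe1, the Hsp10 lid, had 6.11, 6.13, 6.34 and 6.21 in PCKO muscles, against 5.93, 6.21, 6.12 and 6.24 in WT muscles. Its groups overlapped, with a difference of 0.07 ± 0.09 (adjusted p = 0.52), and a second Hspe1 probe differed by 0.06. Hspd1 and Hspe1 are neighbours that read away from each other on chromosome 1, and their windows overlap in a region with overlapping matches to the heat shock arrangement. The stretch at chr1:55088039-55088108 is shown in the direction of Hspe1, with 1 match in capitals, because it precedes both genes.
Hspe1: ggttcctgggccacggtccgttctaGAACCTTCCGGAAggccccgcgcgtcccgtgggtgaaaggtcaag
The 2 promoters hold the same letters on opposite strands, so the matches of Hspd1 and Hspe1 are not independent.

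The other mitochondrial J-domain proteins differed less. Dnajc15, of the inner membrane import motor, was lower (-0.41 ± 0.07, adjusted p = 8.8e-04), while the bright probe of its relative Dnajc19 differed by 0.06 ± 0.12. The dimmer Dnajc19 probe, for NM_001026211, was lower (-0.34, adjusted p = 0.038 over all probes) with groups that overlapped. Dnajc30 was lower (-0.28 ± 0.10, adjusted p = 0.035), a call lost without any 1 of PCKO replicates 1, 2 and 4 and of WT replicates 1, 3 and 4 (-0.21 to -0.29). Dnajc4 was higher by 0.22 ± 0.07 (adjusted p = 0.023), a call lost without PCKO replicate 1, 3 or 4 or WT replicate 3 (0.20 to 0.21). Dnajc11 and Dnajc28 differed by -0.19 ± 0.11 and -0.05 ± 0.13. Among 20 tested genes of mitochondrial import and proteolysis 5 were higher and 5 lower, with a median of 0.08, against 38.3% and 32.7% of all genes. Relative to spike-ins 13 were higher and 0 lower, with a median of 0.76, against 53.5% and 9.44% of all genes. The largest percentile-scaled differences were the disaggregase Clpb (0.78 ± 0.09) and the protease Htra2 (0.53 ± 0.09), and on the lower side the import channel Timm23 (-0.69 ± 0.07) and the unfoldase Clpx (-0.42 ± 0.08), which stood at -0.01 and 0.25 relative to spike-ins.

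Ratios of related genes within an array do not depend on a shift of the whole array, such as percentile or spike-in scaling. Quantile normalization moves genes of unlike brightness by unlike amounts and can change them. Ratios under it are not given here. For 11 pairs, chosen with earlier results known, the log2 ratio of one gene's probe to the other's was compared between groups. In 5 pairs the 4 PCKO ratios and the 4 WT ratios did not overlap, each with an exact two-sided permutation p of 0.029, the smallest possible here. After adjustment over the 11 pairs this was 0.063, so none passed. With this few arrays a pair could not pass by its own gap, however wide, so the missing pass decides nothing. The ratio of Hspa4l to Hspa4 was higher in PCKO by 1.37, of Dnaja1 to Dnaja2 by 1.11, of Hsp90aa1 to Hsp90ab1 by 0.67 and of Dnajb1 to Dnajb4 by 0.63. The ratio of Hspd1 to Hspe1 was lower (-0.64), being -0.11, -0.39, -0.58 and -0.30 in PCKO muscles, against 0.46, 0.28, 0.16 and 0.27 in WT muscles. A shift in such a ratio describes unequal change and not which gene moved. Ratios of Hspa5 to Hsp90b1 (0.20), Bag3 to Bag1 (-0.43), Dnaja4 to Dnaja2 (0.44), Hsph1 to Hspa4 (-0.19), Dnajb9 to Dnajb11 (-0.20) and Hspa9 to Hspd1 (-0.09) overlapped between the groups.

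**Figure D4:**
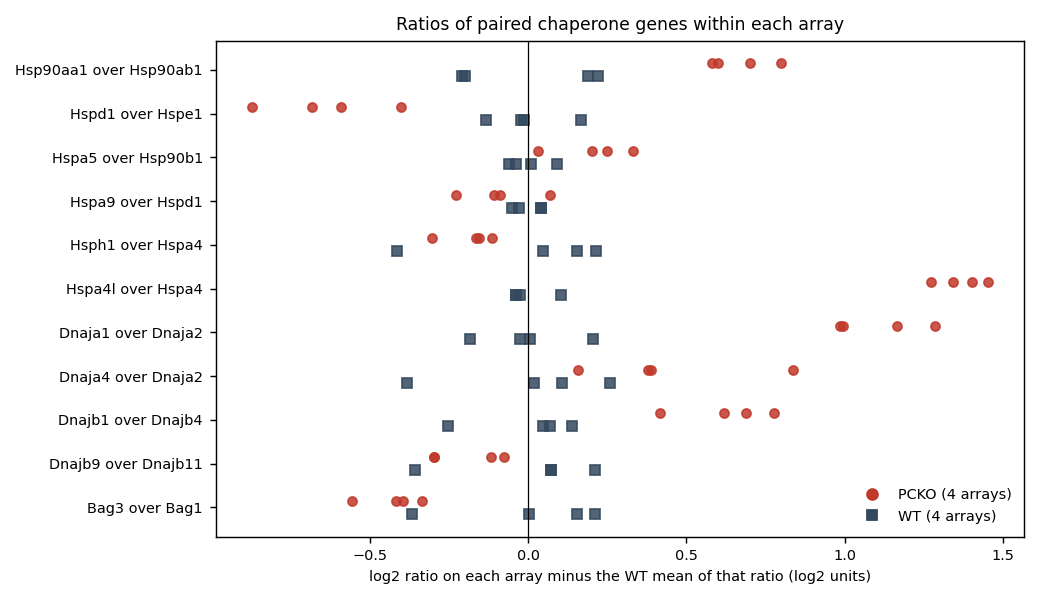
Log2 ratio of 2 chaperone genes on each array, shown relative to the WT mean of that ratio (horizontal axis, log2 units), for 11 pairs, with PCKO arrays as red circles above WT arrays as dark squares. The circles of Hspa4l over Hspa4, Dnaja1 over Dnaja2, Hsp90aa1 over Hsp90ab1 and Dnajb1 over Dnajb4 lie to the right of all squares, and those of Hspd1 over Hspe1 to the left.

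The heat shock regulators gave different calls on the 2 scales. Hsf1, the main activator of inducible chaperone genes, had 2.52, 2.38, 2.54 and 2.58 in PCKO muscles, against 3.51, 3.60, 3.48 and 3.66 in WT muscles. Its groups were apart, with a difference of -1.06 ± 0.08 (adjusted p = 4.4e-06), and Hsf2 was lower as well (-0.76 ± 0.07). Relative to spike-ins these were -0.38 and -0.08, neither called. Of the 4 tested regulators, 3 factors and the factor-binding protein Hsbp1, 2 were lower and 0 higher on the percentile scale, and 1 was higher without WT replicate 1. Relative to spike-ins 0 were lower and 2 were higher, namely Hsf4 (0.86) and Hsbp1 (0.85), which on the percentile scale differed by 0.18 and 0.17 without a call. Over all genes 32.7% were lower and 38.3% higher on the percentile scale, and 9.44% and 53.5% relative to spike-ins.

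Both muscle-specific genes among the 3 myosin chaperones were lower. Unc45b, the muscle-specific Hsp90 partner that folds myosin heads, was lower (-2.10 ± 0.10), as was Smyd1, a muscle methyltransferase that works with it (-1.93 ± 0.18). Both were also called lower relative to spike-ins (-1.43 and -1.26). The widely expressed Unc45a was higher by 0.38 ± 0.10. The fast muscle marker genes named above fell in the same muscles, and their part in this result was not tested.

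Other cytosolic partners were called in both directions on the percentile scale. Of 21 tested Hsp90 and Hsp70 co-chaperones 7 were higher and 5 lower, with a median of 0.03, and 4 were higher without PCKO replicate 4. Relative to spike-ins 12 (57.1%) were higher and 0 lower, with a median of 0.70. Over all genes 38.3% were higher and 32.7% lower, and relative to spike-ins 53.5% and 9.44%, with a median of 0.73. Tomm34, which joins Hsp70 and Hsp90, was higher by 1.70 ± 0.09 and Cdc37l1 by 1.15 ± 0.12, while the steroid receptor immunophilins Fkbp5 and Fkbp4 were lower (-1.18 ± 0.14 and -0.70 ± 0.10) but not called relative to spike-ins. Of 14 tested genes of the cytosolic chaperonin and prefoldin, which fold actin and tubulin, 5 were higher and 3 lower, and 3 were higher without any 1 of PCKO replicates 1 and 3 and WT replicates 1 and 2. Relative to spike-ins 10 (71.4%) were higher and 0 lower, with a median of 0.82. Among these genes Pfdn4 was higher by 1.01 ± 0.10 and Pfdn5 by 0.37 ± 0.09. Cct5 and Cct6a were lower (-0.57 ± 0.07 and -0.41 ± 0.14) but at 0.11 and 0.26 relative to spike-ins, with Cct6a losing its call without any 1 of PCKO replicates 2 and 3 and WT replicates 2, 3 and 4 (-0.32 to -0.43).

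Partners of Bag3 in chaperone-assisted autophagy were lower for 5 of 8 tested genes and higher for 2, with a median of -0.68. Over all genes 32.7% were lower and 38.3% higher. Synpo2, a Z-disc protein that links Bag3 to autophagosome formation, was lower (-1.48 ± 0.14), as was Hspb8, the small heat shock protein bound to Bag3 (-1.22 ± 0.19). Flnc, the filamin that this pathway clears, was higher by 1.28 ± 0.20 and Vps18 by 0.48 ± 0.11. Relative to spike-ins 3 were higher and 1 lower, Synpo2 (-0.80), where 53.5% of all genes were higher and 9.44% lower.

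**Figure D5:**
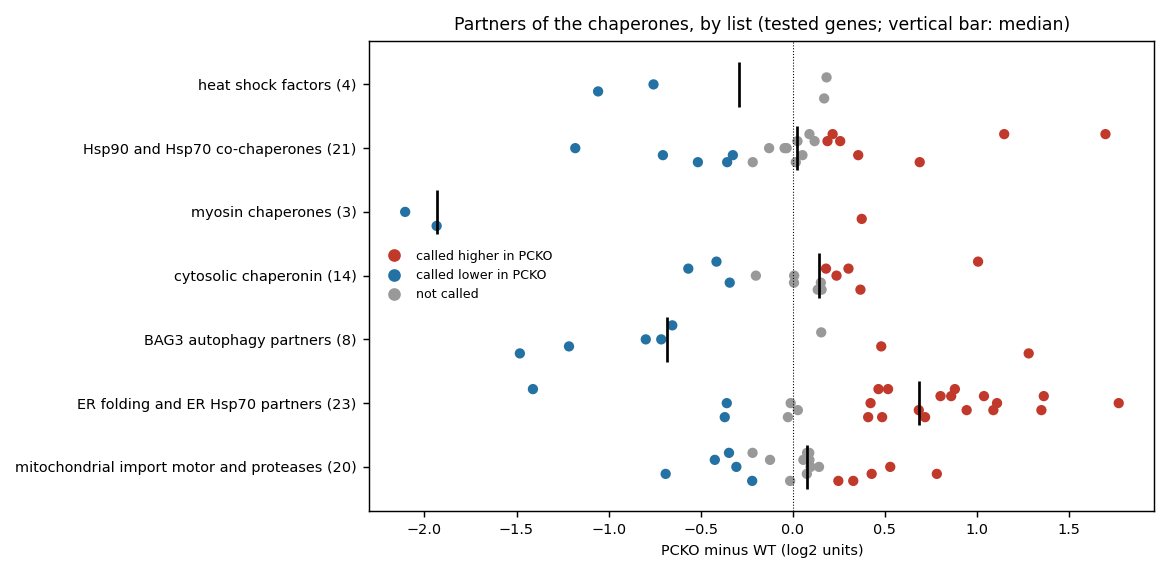
Difference between PCKO and WT muscle (horizontal axis, log2 units) for the tested genes of 7 lists of chaperone partners, coloured by call, with a vertical bar for each list's median. The ER list has 17 of 23 genes called higher with a median of 0.69, the Bag3 list has 5 of 8 called lower with a median of -0.68, and on spike-in centring that Bag3 median moves to -0.01.

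Member levels, like those of most genes, spread more widely among WT than among PCKO muscles. The SD was larger in WT for 42 of the 61 tested members (68.9%), against 59.6% of all genes. The median SD was 0.099 in PCKO and 0.15 in WT over the members, against 0.13 and 0.16 over all genes. For 22 members (36.1%), among them Dnajb1, Hsp90aa1, Dnajb4, Dnaja1 and Hspa1a, both WT arrays of slide column 4 (replicates 2 and 4) lay above both WT arrays of slide column 3, as they did for 27.2% of all genes. In the PCKO group both arrays of slide column 2 lay above both of column 1 for 9 members (14.8%) and 11.2% of all genes. Within slide row 1 alone 16 members were called higher and 12 lower, and within row 2 alone 18 and 13, each row holding 2 PCKO and 2 WT arrays.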

How the data were processed

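EDL RNA of 8 mice, 4 PCKO and 4 WT, was Cy3-labelled and hybridised to single-colour Agilent arrays, per the labels' protocols. The deposited scanner files give spot intensity, background-subtracted by Feature Extraction (version 10.7.3.1) per the file headers, with no normalization between arrays. The authors also deposited log2 values for 32622 probes; the sources used here do not say how these were made. Over 6027 bright probes each column correlated at 0.9997 or more with the log2 median spot signal of its own array and at 0.995 or less with any other, and column medians were 5.45 to 5.52. Whether background was subtracted and how the columns were scaled stays unknown, and they served as an alternative.

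The 75th percentile of non-control probes was subtracted from log2 processed intensity within each array, leaving out control spots and spots flagged as outliers and averaging the spots of a probe. Testing required a probe to be well above background on 4 or more of the 8 arrays. Accessions were matched to mouse RefSeq symbols: 26582 probes had 1 symbol and 29099 none. The brightest tested probe stood for a gene. The comparison used limma (version 3.58.1, R 4.3.3): a linear model with group alone, moderated two-sided tests and Benjamini-Hochberg adjustment across every tested gene. The fit was first tested on simulated data. The number of arrays limits precision. Alternatives changed the scaling, background correction, filter, probe rule, variance model, source of values, blocks and the mice included.

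Earlier results of these data were known when the members, compartments, partner lists, pairs and naming rule were chosen. The rule gave every array's value for members called with at least a 2-fold change and for a set of core chaperones (Hspa8, Hspa1a, Hsph1, Hsp90aa1, Hsp90ab1, Dnajb1, Dnajb6, Bag3, Hspa5, Hsp90b1, Dnajb9, Hspa9, Hspd1, Hspe1), and named the 2 largest called differences in each direction from each partner list. Xbp1 and the transcript-level probes were named after their values were seen. The labels describe 4 mice per group. Same-numbered samples of the groups correlated at 0.053 to 0.124 in their deviations, and differently numbered samples at -0.135 to 0.046. All these correlations were low, but the same-numbered ones were the highest. Whether the numbers pair the mice was not settled. The main fit left them out, and a fit with the replicate number as a block is given below.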

Additional observations from a re-analysis of the deposited data

Results flagged for a closer look

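In 8 of 122 sets of 4 arrays (1 member in 1 group), 1 muscle stood farther from its group than Dixon's critical value allows, and chance alone gives about 1 in 20. In the PCKO group Dnajc4 was 3.87 in replicate 2, against 4.05 to 4.07 in the other three, and Hsp90b1 was 6.53 in replicate 4, against 6.35 to 6.37. In the WT group replicate 1 stood apart for Dnaja2 (5.87, against 6.01 to 6.04), Dnajc2 (0.88, against 1.28 to 1.31) and Dnajc11 (-0.31, against -0.60 to -0.65). Replicate 2 of WT stood apart for Hspa5 (7.24, against 7.08 to 7.10) and Dnajb8 (-2.07, against -0.89 to -1.06). Replicate 3 of WT stood apart for Dnajc28 (-0.50, against -0.07 to 0.00). Leaving out the muscle concerned kept the call of Dnaja2, Dnajc2, Hspa5, Hsp90b1 and Dnajc4, and gave Dnajb8 a call.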

How the results depend on the processing

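Scaling was the choice that moved the chaperone results the most. Centring on spike-ins gave 38 members higher and 1 lower, 23 and 1 in the cytosol and nucleus, 0 lower in the ER and 3 higher and 0 lower in mitochondria, with 1203 genes lower overall. It put Bag1 at 0.40, Dnaja2 at 0.01, Dnaja3 at 0.11, Dnajb4 at 0.06, Dnajc15 at 0.26, Dnajc30 at 0.40, Hspa9 at 0.02 and Hspd1 at 0.11, and the partners Cct5 at 0.11, Cct6a at 0.26, Derl1 at 0.31 and Clpx at 0.25, all above 0 and none called. Quantile normalization gave 2 mitochondrial members higher and 3 lower and turned Bag1 (0.19) and Bag6 (0.25). Normexp on the median signal gave 3 and 2 there, with Dnajc30 at 0.02. The deposited values, which cover fewer probes, put the count of all genes called lower at 2387, and gave 0 ER members lower and 0 mitochondrial members higher, with Bag1 at 0.04, Bag6 at 0.25 and Dnajc19 at -0.28. Fewer genes and members were tested there, so these counts are not comparable with the main ones. Among the members covered, 34 kept their call or lack of one. Without a filter on dim probes 0 mitochondrial members were higher, as within slide row 1 alone and within row 2 alone, where 3 were lower. With the replicate number as a block, 59 of 61 members kept direction and side of the threshold, 2 (Dnajc4 and Dnajc30) lost their call, and 0 mitochondrial members were higher. Leaving out 1 mouse at a time gave 0 to 1 mitochondrial members higher, and the other compartment counts stayed within 1.5 times. With the slide row as a block the same was true of 59 members, and with centring on the median of tested probes of all 61. The dimmest members limit what can be said: 7 were not tested, and Dnajb3 has only a bound, which normexp did not keep.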
